A study of Mus musculus with 359 samples.

Results

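The livers of male B6C3F1 mice that ate feed with 2500 ppm 4-methylimidazole (4-MEI) for 5 days were compared, over all genes, with the livers of males on vehicle feed for the same time. B6C3F1 is a hybrid mouse strain used widely in toxicology, and 4-MEI is a small nitrogen heterocycle that forms when sugars are heated with ammonia. The comparison held 12 of the 359 samples in the series, 6 libraries at 2500 ppm and 6 on vehicle, chosen by the dose and sex in their titles. The series followed liver and lung of both sexes over dose and time, and the ages of the mice were not given in the sources used here. Other groups are used below only to set these libraries in context: males fed 150, 300 or 1250 ppm for 5 days, females fed 2500 ppm or vehicle for 5 days, males fed 2500 ppm or vehicle for 28 days, and vehicle females of day 28, with 6 libraries in each.

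The liver adjusts its drug-metabolising enzymes to foreign chemicals through nuclear receptors. CAR and PXR, encoded by Nr1i3 and Nr1i2, raise cytochrome P450 genes of the Cyp2b, Cyp2c and Cyp3a families, while the aryl hydrocarbon receptor (AHR) raises Cyp1a genes and NRF2 raises antioxidant genes. CAR and PXR bind pairs of short motifs in the control regions of their targets, often in a direct repeat. In rodents many liver enzymes are also set by sex, because growth hormone is released in pulses in males and more steadily in females.

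Promoter sequence is shown for 3 P450 genes whose levels the results turn on, Cyp2b10, Cyp2c29 and Cyp3a11. The letters are those of RefSeq on GRCm38.p6, the build mm10, written 5′ to 3′ on the strand of the gene and ending at the base before its annotated start. They cover chr7:25897408-25897657 on the plus strand for Cyp2b10, chr19:39286835-39287043 on the plus strand for Cyp2c29 and chr5:145879855-145880104 on the minus strand for Cyp3a11. Capitals mark matches, on either strand, to AGGTCA or AGTTCA, and to a direct repeat of AGNTCA with 4 free bases between its copies, which may overlap the single motifs.
Cyp2b10: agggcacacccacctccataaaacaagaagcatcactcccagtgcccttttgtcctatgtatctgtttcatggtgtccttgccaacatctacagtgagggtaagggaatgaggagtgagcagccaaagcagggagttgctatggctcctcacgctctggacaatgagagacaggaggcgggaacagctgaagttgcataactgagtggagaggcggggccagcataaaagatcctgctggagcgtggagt
Cyp2c29: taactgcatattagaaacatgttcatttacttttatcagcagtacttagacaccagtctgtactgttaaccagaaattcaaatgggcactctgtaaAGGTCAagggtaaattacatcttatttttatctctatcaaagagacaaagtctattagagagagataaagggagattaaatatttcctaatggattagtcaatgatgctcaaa
Cyp3a11: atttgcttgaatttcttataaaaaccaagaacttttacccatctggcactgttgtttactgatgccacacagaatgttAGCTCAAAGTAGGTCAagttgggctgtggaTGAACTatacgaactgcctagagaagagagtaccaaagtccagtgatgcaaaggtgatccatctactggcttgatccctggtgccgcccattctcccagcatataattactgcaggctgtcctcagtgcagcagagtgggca
The Cyp3a11 window held a direct repeat that starts 172 bases before the gene, which includes an AGGTCA, and downstream of it a reversed AGTTCA, printed as TGAACT. The Cyp2c29 window held an AGGTCA, and the Cyp2b10 window held no letters of these motifs. Among 32851 promoter windows of 250 bases, 0.103% held the direct repeat, 14% AGGTCA and 11.8% AGTTCA. These matches describe the letters only.

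Counts of reads per gene were scaled to CPM, the counts of a gene relative to a fixed library total, with TMM, which evens out library composition, and tested with edgeR. A gene is called higher or lower where its p-value, adjusted over all genes tested, was under 0.05. Library totals were 12675583 to 16704861 counts at 2500 ppm and 11070867 to 12763239 on vehicle, and the part of this depth gap in the results was not tested. The sex labels held: Xist, the RNA of the inactive X chromosome, reached at most 0.198 CPM at 2500 ppm and 0.410 CPM on vehicle, and 4 Y-linked genes summed to 83.1 to 147.8 CPM at 2500 ppm and 125.7 to 166 CPM on vehicle. The 7 hepatocyte markers, Alb and Apoa1 among them, summed to 129700 to 165400 CPM at 2500 ppm and 125000 to 180900 CPM on vehicle, with none at 0. The unprocessed ribosomal transcript Rn45s took 1.31% to 1.81% of counts at 2500 ppm and 1.48% to 2.68% on vehicle. Each library carried its own number in its title, and the labels do not say whether libraries came from separate animals, so the p-values measure spread between libraries. For the day 5 comparisons that spread was estimated over all 60 day 5 liver libraries, not from the 12 compared alone.

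Drug-metabolising genes led the genes that rose at 2500 ppm, with 10 targets of CAR and PXR among them. The genes that fell included 4 of a list of nuclear and RNA-processing genes and 3 of a list of male-biased liver genes. Of 12836 genes tested, 28 were called higher and 24 lower, which is 0.405% in all, 0.218% higher and 0.187% lower. A further view without a model counted genes whose 2 groups did not overlap: 60 genes (0.467%) lay wholly higher at 2500 ppm and 53 (0.413%) wholly lower. Of the called genes, 19 of the higher and 12 of the lower were separated in this way. The changes were small: 2 called genes, Cyp2b10 and Cyp2c55, were more than 2-fold higher, and 3, Malat1, Snx22 and Muc6, were more than 2-fold lower. The median log2 fold change over all genes was -0.01, with 46.3% of genes above 0.

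The P450 genes that CAR and PXR control rose together. Of 14 such genes tested, 10 were called higher and none lower, where 0.218% of all genes tested were called higher. All 14 had a log2 fold change above 0, and the median was 0.73 against -0.01 over all genes. Like the other lists used below, this list was written with earlier results of these data known, so counts of list members are not an independent test. In 8 of the 14 every 2500 ppm library lay above every vehicle library. Those called were Cyp2b10, 7 Cyp2c genes (Cyp2c29, Cyp2c37, Cyp2c38, Cyp2c39, Cyp2c50, Cyp2c54 and Cyp2c55), Cyp3a11 and Cyp3a59. The 7 Cyp2c genes lie in a single cluster on chromosome 19, between 39006940 and 40113955 in GRCm38.p6, a span of 1107 kb.

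Cyp2b10, whose enzyme hydroxylates barbiturates and many other drugs and which is the classic target of CAR in mouse liver, had the largest rise. Its libraries held 16.8, 27.1 and 79.4 CPM (lowest, median and highest) at 2500 ppm, against 2.62, 5.38 and 11.3 CPM on vehicle. All treated libraries lay above the highest vehicle library, and 1 of them stood far above the rest. The log2 fold change was 2.58 (SE 0.44, edgeR adjusted p = 0.000873), and it ranged from 2.16 to 2.86 when a library was left out or the fit was changed. Cyp2c55, whose enzyme oxidises fatty acids such as arachidonic acid, held 27.4, 39.9 and 51.9 CPM at 2500 ppm and 10.2, 11.6 and 19.3 CPM on vehicle. Its groups did not overlap, and its log2 fold change was 1.51 (SE 0.31, adjusted p = 0.00924).

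Cyp3a11, the mouse counterpart of the main human drug-oxidising enzyme, held 3571, 4314 and 4962 CPM at 2500 ppm and 2095, 2412 and 2565 CPM on vehicle. The lowest treated library thus exceeded the highest vehicle library, and the log2 fold change was 0.85 (SE 0.11, adjusted p = 4.17e-06). Cyp2c29, a phenobarbital-inducible P450, held 3284, 3966 and 5477 CPM in treated livers and 2062, 2393 and 2823 CPM in vehicle livers, again with no overlap (log2 fold change 0.76, SE 0.14, adjusted p = 0.00206). Cyp2c54 had the smallest p of any gene: 564, 629 and 719 CPM at 2500 ppm and 346, 400 and 445 CPM on vehicle, a log2 fold change of 0.67 (SE 0.07, adjusted p = 1.6e-08). Its separation was narrow in size but tight within each group. Cyp2c50 and Cyp2c37 rose by 0.52 and 0.43 on the log2 scale, and Cyp3a59 by 0.72, each with the groups apart. Cyp2c39 and Cyp2c38 rose by 0.78 and 0.75, with 5 of 6 treated libraries above every vehicle library in each. In the 12 fits that each left out a library, Cyp2c38 and Cyp2c37 were called in 5 each and Cyp2c39 in 11. The other called members of the list were called in all 12. Fits of both groups alone and of male groups only each kept 8 of the 10 calls and lost Cyp2c39 and Cyp2c38.

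**Figure D1:**
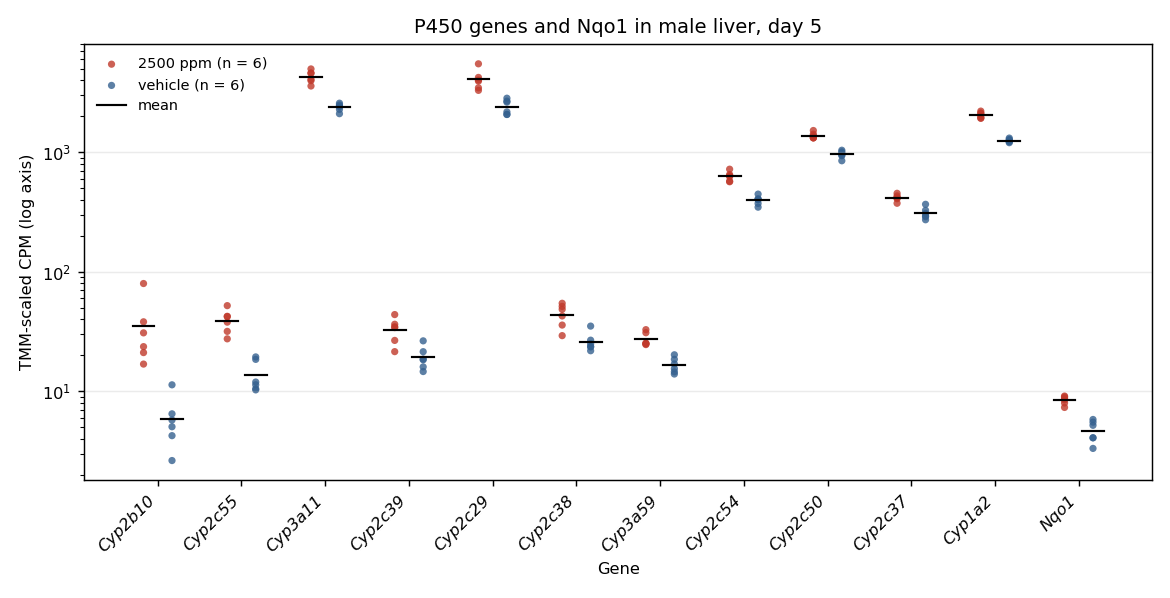
Level of 12 genes that rose at 2500 ppm, in every library of male liver at day 5. The vertical axis is TMM-scaled CPM on a log scale, points are libraries (2500 ppm on the left of each gene, vehicle on the right, n = 6 each) and bars are means; the groups are apart in all genes shown except Cyp2c39 and Cyp2c38.

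The 4 members of the list that were not called were Cyp2a5, Cyp2c65, Cyp3a13 and Cyp3a25. Cyp2a5, which encodes coumarin 7-hydroxylase, averaged 2363 ± 1417 CPM at 2500 ppm and 1091 ± 628 CPM on vehicle (SD, n = 6 each), a log2 fold change of 1.11 with an adjusted p of 0.4929. Its libraries spanned 616 to 4328 CPM at 2500 ppm and 391 to 2109 CPM on vehicle, so the groups overlapped widely. Cyp3a25 averaged 911.6 ± 72.2 CPM in treated livers and 751 ± 61.4 CPM in vehicle livers (log2 fold change 0.28, adjusted p = 0.236). Reads of several of these genes could come from a close relative, which leaves the level of a single gene uncertain: of all 50-base stretches of its transcript, 30.7% of Cyp2c50, 25.7% of Cyp2c54, 28% of Cyp3a59, 14.8% of Cyp3a11 and 9.69% of Cyp2b10 occur in another gene as well, against 2.08% of Cyp2c29 and 0.514% of Cyp2c55.

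The receptors and the electron donors of the P450 enzymes were not called. Of 13 genes edgeR and DESeq2 called 0, and 2 had an unadjusted p under 0.05. Nr1i3, the gene of CAR, averaged 134.1 ± 31.6 CPM at 2500 ppm and 106.1 ± 15.1 CPM on vehicle (log2 fold change 0.34, adjusted p = 0.593), and Nr1i2, the gene of PXR, 54.1 ± 11.6 and 54.9 ± 6.77 CPM (log2 fold change -0.02, adjusted p = 0.983). Por, which passes electrons to every microsomal P450, averaged 522 ± 235 CPM in treated livers and 340 ± 181 CPM in vehicle livers, with an adjusted p of 0.675. Alas1, the rate-limiting enzyme of haem synthesis, averaged 378 ± 311 and 369 ± 217 CPM.

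Cyp1a2 and Nqo1, both known AHR targets, rose as well. Cyp1a2, which oxidises caffeine and aromatic amines, held 1920, 2041 and 2202 CPM at 2500 ppm and 1198, 1246 and 1309 CPM on vehicle. The groups were far apart relative to their spread, with a log2 fold change of 0.71 (SE 0.12, adjusted p = 0.00123). Nqo1, a quinone reductase, held 7.29, 8.57 and 9.08 CPM in treated livers and 3.31, 4.62 and 5.78 CPM in vehicle livers, without overlap (log2 fold change 0.85, SE 0.16, adjusted p = 0.00206). The other 4 AHR targets tested were not called, among them Cyp1a1, at 3.46 ± 0.872 CPM in treated livers and 2.54 ± 0.462 CPM in vehicle livers (adjusted p = 0.597). Of 12 NRF2 targets, Nqo1 and the peroxiredoxin-repairing Srxn1 were called higher. Srxn1 held 43.1, 46.6 and 55.9 CPM at 2500 ppm and 31.6, 35.3 and 41.4 CPM on vehicle, a log2 fold change of 0.42 (SE 0.10, adjusted p = 0.0271). Of the 12 fits that each left out a library, Srxn1 was called in 5, and Cyp1a2 and Nqo1 in 12. Fits of both groups alone and of male groups only also lost Srxn1. The remaining NRF2 targets included Hmox1, Gclc and Gclm with log2 fold changes of 0.00, 0.07 and 0.03, and the list's median was 0.05.

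In the later steps of drug handling fewer genes passed. Of 28 conjugation and hydrolysis genes, Gstt3 and Ces2a were called higher and none lower, with 23 of 28 above 0 and a median log2 fold change of 0.19. Over all genes tested 0.218% were called higher and 46.3% were above 0. Gstt3, a glutathione transferase, held 54.6, 61.7 and 79.6 CPM at 2500 ppm and 32.4, 38.7 and 45.3 CPM on vehicle, so the groups were apart (log2 fold change 0.75, SE 0.16, adjusted p = 0.0112). Ces2a, a carboxylesterase, rose by 0.38 (SE 0.09, adjusted p = 0.0348). Gstt1 just missed the threshold, at 261 ± 20.8 CPM in treated livers and 218 ± 13.6 CPM in vehicle livers (log2 fold change 0.26, adjusted p = 0.0526), and Ugt1a1, which conjugates bilirubin, had a log2 fold change of 0.40 (adjusted p = 0.169). Ugt1a5 was also called higher, by 0.70 (SE 0.17, adjusted p = 0.0348), but 64% of its 50-base stretches are shared with Ugt1a2, since the genes of that locus have exons in common. Over the 12 fits that each left out a library, Gstt3 was called in 11, and Ces2a and Ugt1a5 in 3 each.

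Among 14 hepatic transporters, Slco1a4 and Abcc3 rose and Abcg2 fell. Slco1a4, an uptake carrier for organic anions and steroids, held 62.8, 69.9 and 92.1 CPM at 2500 ppm and 27.2, 40.8 and 50.95 CPM on vehicle, with every treated library above every vehicle library (log2 fold change 0.92, SE 0.18, adjusted p = 0.00369). Abcc3, an export pump of the basolateral membrane, averaged 462 ± 25.7 CPM in treated livers and 337.0 ± 45.9 CPM in vehicle livers (log2 fold change 0.45, SE 0.09, adjusted p = 0.00481), also without overlap. Abcg2, the efflux pump also called BCRP, averaged 102.8 ± 8.49 and 131.3 ± 10.7 CPM (log2 fold change -0.35, SE 0.08, adjusted p = 0.0309), and 5 of 6 treated libraries lay below every vehicle library. With each library left out in turn, Abcg2 was called in 3 of 12 fits, and Slco1a4 and Abcc3 in 12. Slco2b1 lay wholly higher at 2500 ppm (172 ± 8.02 CPM, against 146.1 ± 8.48 CPM on vehicle) yet did not pass (adjusted p = 0.384).

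Cholesterol synthesis genes had values above vehicle almost throughout. Of 24 members tested, 23 had a log2 fold change above 0, where 46.3% of all genes tested did. The median was 0.32 against -0.01 over all genes, and 4 lay wholly above the vehicle range, where 0.467% of all genes did. Sqle, the squalene epoxidase, had a log2 fold change of 0.53 and missed the threshold in edgeR (adjusted p = 0.0966), while DESeq2 called it higher, as it did Msmo1, a sterol methyl oxidase.

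The other genes that rose have separate roles. Mat1a, which makes the methyl donor S-adenosylmethionine in liver, held 2505, 2869 and 3261 CPM at 2500 ppm and 1824, 2053 and 2384 CPM on vehicle, and rose by 0.49 (SE 0.10, adjusted p = 0.0101) with no overlap. Rdh16, a retinol and steroid dehydrogenase, rose by 0.43, Gyg, the primer of glycogen synthesis, by 0.40, the deubiquitinase Josd1 by 0.34 and the amyloid precursor relative Aplp2 by 0.23. Abcd2, a peroxisomal carrier of very long chain fatty acids, rose by 0.79, Nrp2, a co-receptor of semaphorins and VEGF, by 0.66, and Pold4, a subunit of DNA polymerase delta, by 0.52. Abcd2 and Aplp2 were near the threshold (adjusted p = 0.0482 and 0.0497), and their calls held in 3 and 2 of the 12 fits that each left out a library and in 2 of the 6 other fits each. Nrp2 and Pold4 were called in 4 of those 12 fits each, Gyg in 6, Rdh16 in 7, and Mat1a and Josd1 in 12. Fits of both groups alone and of male groups only lost Nrp2 and Pold4, the first also Gyg and Josd1, and the second also Rdh16. Cyp4a31, of the family of fatty acid omega-hydroxylases, rose by 0.81 (SE 0.19, adjusted p = 0.0348) and was the 1 member called of 22 PPAR-alpha targets, whose median was 0.06. It was called in 6 of the 12 fits that each left out a library, and fits of both groups alone and of male groups only lost it. Its relative Cyp4a14 averaged 239 ± 66.8 CPM at 2500 ppm and 97.9 ± 32.7 CPM on vehicle and narrowly missed the threshold (log2 fold change 1.29, adjusted p = 0.0566).

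Some genes with a male-biased level in liver fell. Of 18 on that list, 3 were called lower (Selenbp2, Cyp7b1 and Mup21) and none higher, where 0.187% of all genes tested were called lower. In 17 the log2 fold change was below 0, where 6893 of all 12836 genes were, and the median was -0.39. This list was also written with earlier results known, so its counts are not an independent test. Selenbp2, a selenium-binding protein, held 365, 453 and 657.5 CPM at 2500 ppm and 777, 958 and 1117 CPM on vehicle, without overlap (log2 fold change -0.997, SE 0.24, adjusted p = 0.037). Reads of Selenbp2 can be shared with Selenbp1, which holds 52% of its 50-base stretches. Cyp7b1, an oxysterol hydroxylase of the alternative bile acid pathway, held 372, 434 and 485 CPM in treated livers and 466, 812 and 1007 CPM in vehicle livers. All vehicle libraries but replicate 82 lay far above the treated range, and the log2 fold change was -0.88 (SE 0.19, adjusted p = 0.0123). Mup21, a major urinary protein gene, averaged 229 ± 62.9 CPM in treated livers and 373 ± 100.9 CPM in vehicle livers (log2 fold change -0.70, SE 0.14, adjusted p = 0.00661). Of the 12 fits that each left out a library, Selenbp2 was called in 3, and Cyp7b1 and Mup21 in 12. A fit without a filter on low counts lost Selenbp2, and fits of both groups alone and of male groups only lost Mup21.

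Other male-biased members moved less clearly. Cyp4a12b averaged 30.6 ± 6.45 CPM at 2500 ppm and 44.7 ± 5.92 CPM on vehicle (log2 fold change -0.55, adjusted p = 0.0625), and Gstp1, a glutathione transferase, 345 ± 87.5 and 481 ± 112.8 CPM (log2 fold change -0.48, adjusted p = 0.143). Elovl3, a fatty acid elongase, averaged 206 ± 151.6 and 347 ± 249 CPM. By contrast the well known male-specific genes Cyp4a12a and Slco1a1 had log2 fold changes of -0.04 and -0.05, and Cyp2d9 of -0.12, none of them called. Of 17 female-biased genes edgeR called 0, while 3 had an unadjusted p under 0.05 and DESeq2 called 1, Cyp39a1. Of the 17, 14 were above 0 with a median of 0.64, but 11 averaged under 1 CPM in both groups of males. Cyp39a1, an oxysterol hydroxylase with a female-biased level, averaged 34.96 ± 2.81 CPM in treated livers and 24.02 ± 3.28 CPM in vehicle livers, with the groups apart (log2 fold change 0.54, adjusted p = 0.0526). Of 12 growth hormone pathway genes, among them the receptor Ghr, Stat5b and Igf1, edgeR and DESeq2 called 0 and 1, Prlr, had an unadjusted p under 0.05.

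The sex difference of every called gene was then read in other mice, as vehicle females against vehicle males at day 28, libraries that the 5-day comparison does not use. This comparison was added after the values above were seen. Titles gave the groups at day 28, but for the vehicle females and the 2500 ppm males the separate sex and dose fields disagree with the titles, in 6 of 6 libraries each. Xist fits the titles: it held 792 to 1105 CPM in the libraries titled vehicle females, 0.0717 to 0.684 CPM in those titled 2500 ppm males and at most 0.622 CPM in vehicle males. The dose of these libraries was not checked by any gene. Of the 28 genes higher at 2500 ppm, 18 were called higher in vehicle females (64.3%, against 11.5% of the 12904 genes tested at day 28) and 3 higher in vehicle males (10.7%, against 10.7%). Of the 24 lower genes, 11 were called higher in vehicle males (45.8%) and none higher in females, with a median log2 fold change of females over males of -0.36. The median was 0.54 for the 28 genes that rose and -0.02 over all genes. Cyp2c39, Abcd2 and Cyp2c38 had the largest female excess among the genes that rose, by 3.64, 3.60 and 3.12 on the log2 scale, and Cyp2b10 had one of 2.54. Cyp2c55, Cyp2c29 and Ces2a rose although their level was higher in vehicle males, by 1.44, 0.60 and 0.28 (log2 fold changes of females over males of -1.44, -0.60 and -0.28).

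Among the genes that fell, Scp2, C9, Abcg2, Aadat and the predicted gene model Gm12718 were called higher in vehicle males at day 28, like Cyp7b1, Selenbp2 and Mup21. Scp2, the sterol carrier and peroxisomal thiolase, held 2182, 2545 and 2788 CPM at 2500 ppm and 2969, 3179 and 3380 CPM on vehicle at day 5, a log2 fold change of -0.33 (SE 0.07, adjusted p = 0.0211) with no overlap. In vehicle livers of day 28 it averaged 986 CPM in females and 3046 CPM in males. C9, the last component of the complement pore, averaged 668 ± 51 CPM in treated livers and 872 ± 48.7 CPM in vehicle livers (log2 fold change -0.39, SE 0.08, adjusted p = 0.0139), again with the groups apart, and 280 CPM in vehicle females against 809.5 CPM in vehicle males of day 28. Aadat, which transaminates kynurenine and aminoadipate, fell by 0.32 (SE 0.07, adjusted p = 0.0122). Scp2 shares 41.4% of its 50-base stretches with the pseudogene Scp2-ps2, so its level is uncertain.

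**Figure D2:**
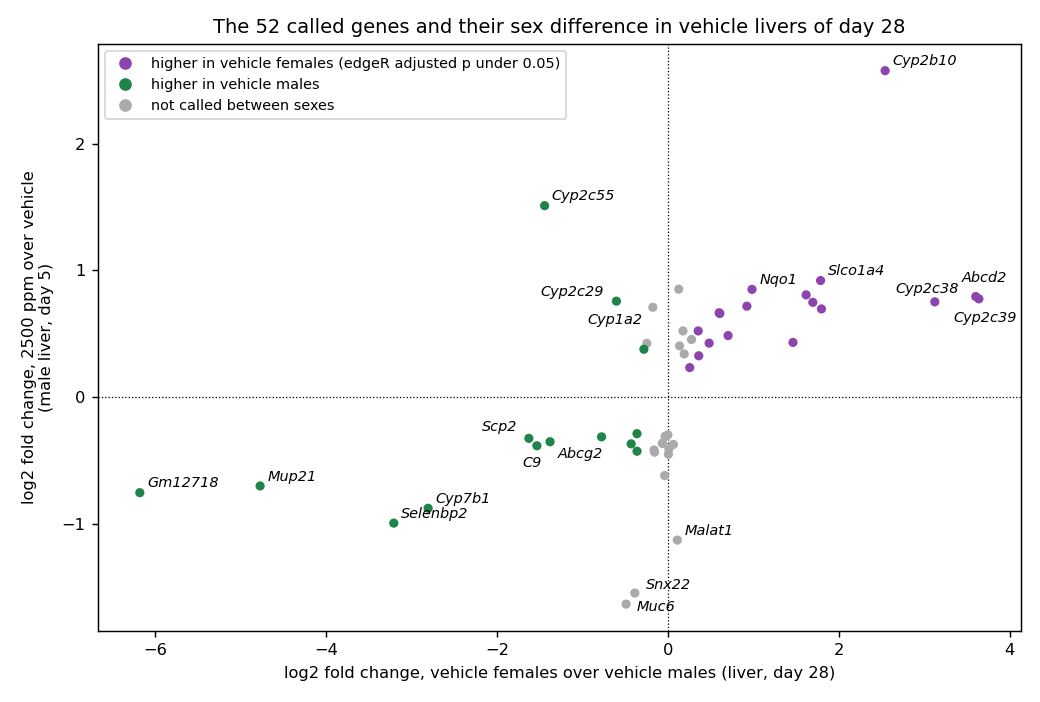
Log2 fold change of the 52 called genes at 2500 ppm over vehicle in male liver at day 5 (vertical axis) against their log2 fold change in vehicle females over vehicle males at day 28 (horizontal axis), 1 point per gene. Of the genes above 0 on the vertical axis 18 were higher in vehicle females and 3 in vehicle males. Of those below 0 11 were higher in vehicle males and none in females. Over all genes tested at day 28, 11.5% were higher in females and 10.7% in males.

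Malat1 and a few genes of RNA processing fell. Of 12 genes tested from a list of 13, edgeR called 4 lower (Malat1, Ccnl1, Clk1 and Luc7l3), and DESeq2 called the same 4 and Neat1. All 12 were below 0, with a median log2 fold change of -0.38. Over all genes tested 0.187% were called lower and 6893 of 12836 were below 0. This list too was written with earlier results of these data known, so its counts are not an independent test. Malat1, a long noncoding RNA held in nuclear speckles, held 254, 368 and 496 CPM at 2500 ppm and 638, 793 and 1126 CPM on vehicle. Its groups were widely apart, with a log2 fold change of -1.13 (SE 0.21, adjusted p = 0.00217). Neat1, the scaffold RNA of paraspeckles, averaged 201 ± 42 CPM in treated livers and 378 ± 101.6 CPM in vehicle livers (log2 fold change -0.91, adjusted p = 0.0919). Clk1, a kinase of splicing factors, held 39.8, 44.7 and 54.3 CPM in treated livers and 55.1, 59.4 and 74.7 CPM in vehicle livers, a small gap between the groups (log2 fold change -0.41, SE 0.10, adjusted p = 0.0482). Luc7l3 and the cyclin Ccnl1, also tied to splicing, fell by 0.30 and 0.45.

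Other called genes bind RNA or take part in splicing; they were picked from the called genes by their known roles, so they carry no count or test as a group. The splicing factors Srsf10, Srsf6, Tra2a and Luc7l2 fell by 0.42, 0.31, 0.62 and 0.37, the RNA-binding protein gene Tardbp by 0.44 and Pabpn1, which binds poly(A) tails in the nucleus, by 0.37. Srsf10 held 15.2, 19.4 and 22.98 CPM at 2500 ppm and 24.02, 25.1 and 29.2 CPM on vehicle, with every treated library below every vehicle library (SE 0.09, adjusted p = 0.0227). These calls depend on the libraries and the fit: of the 12 fits that each left out a library, Srsf6 was called in 0, Tra2a in 5, Luc7l2 and Srsf10 in 9, Pabpn1 in 8 and Tardbp in 12, and a fit of the male groups only lost Srsf6, Tra2a, Luc7l2 and Pabpn1. In 3 of the other fits (no filter on low counts, a fit of both groups alone, and male groups only), Malat1 was the 1 of the 4 called list members that stayed called.

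**Figure D3:**
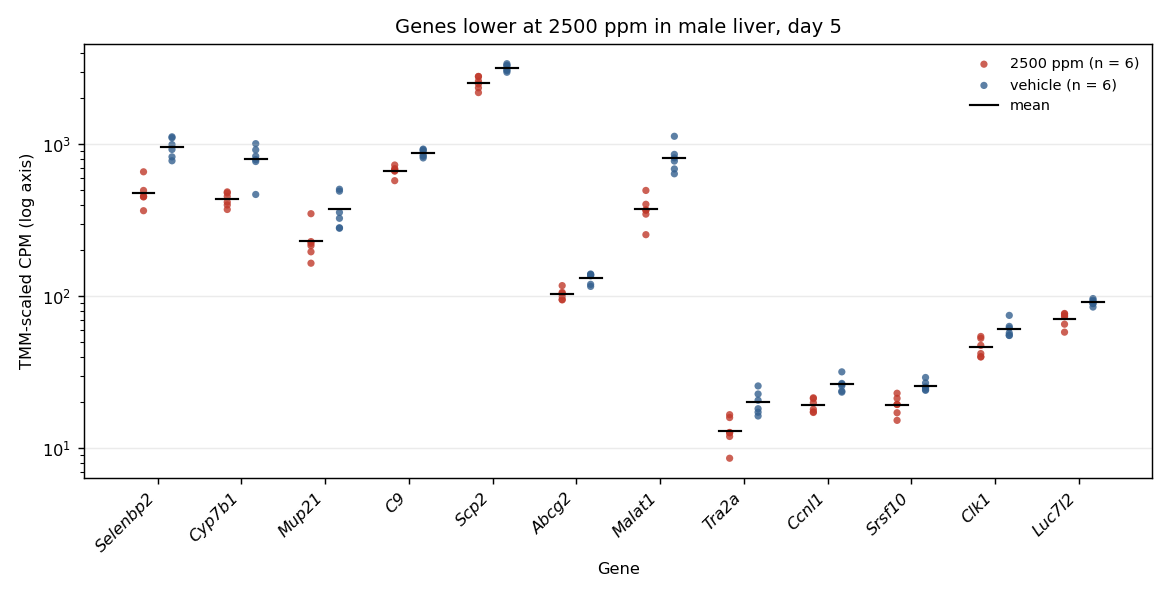
Level of 12 genes that fell at 2500 ppm, in every library of male liver at day 5, as TMM-scaled CPM on a log axis. Points are libraries (2500 ppm on the left of each gene, vehicle on the right, n = 6 each) and bars are means; the groups are apart in all genes shown except Cyp7b1, Mup21, Abcg2 and Tra2a.

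The remaining genes that fell were Cyp2j6, an epoxygenase, by 0.29, the zinc importer Slc39a4 by 0.43, Lsm12 by 0.37, BC024386 by 0.38, Gm12718 by 0.76, and the low-expressed Snx22 and Muc6. Snx22, a sorting nexin, held 0.0698, 0.424 and 0.542 CPM at 2500 ppm and 0.610, 1.24 and 1.48 CPM on vehicle (log2 fold change -1.55, SE 0.31, adjusted p = 0.00646). Muc6, a gel-forming mucin, held 0.0751, 0.300 and 0.849 CPM in treated livers and 0.658, 1.17 and 1.495 CPM in vehicle livers (log2 fold change -1.64, SE 0.39, adjusted p = 0.0309), and its groups overlapped by 1 library. These levels rest on few reads per library, and DESeq2 called neither gene. Muc6 was called in 4 of the 12 fits that each left out a library, and Snx22 in 12. Fits of both groups alone and of male groups only also lost Muc6.

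Of the 26 pathway lists 15 had no call by edgeR or DESeq2, with 20 of their 185 genes at an unadjusted p under 0.05. They include fatty acid synthesis, the clock genes, acute phase, interferon-stimulated, cell cycle, p53, heat shock and stress response genes. The interferon-stimulated genes had 18 of 20 members below 0, with a median of -0.15, where 6893 of all 12836 genes were below 0. The p53 targets Cdkn1a and Ccng1 had log2 fold changes of -0.80 (adjusted p = 0.744) and 0.00, and the proliferation gene Mki67 averaged 1.05 CPM at 2500 ppm and 1.13 CPM on vehicle. Bile acid genes other than Cyp7b1 were not called by edgeR, with Cyp7a1, the rate-limiting enzyme of the classic pathway, at 190 CPM in treated livers and 170 CPM in vehicle livers (log2 fold change 0.16, adjusted p = 0.957).

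**Figure D4:**
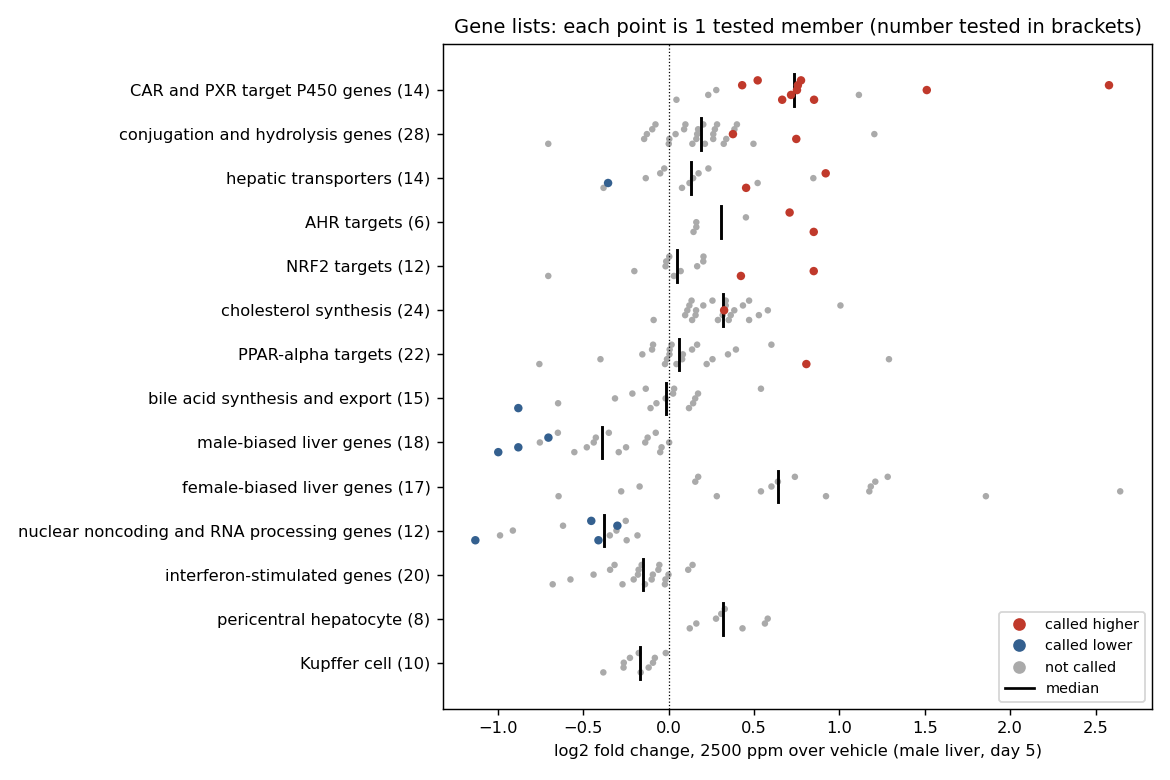
Log2 fold change of each tested member (points) of 14 gene lists at 2500 ppm over vehicle in male liver at day 5, with coloured points for genes called by edgeR, grey points for the others and black lines for the medians. The CAR and PXR list has a median of 0.73 and the male-biased list one of -0.39, while the NRF2, PPAR-alpha and bile acid lists centre near 0.

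No marker of a cell type was called. Of the 14 marker lists none had a call by edgeR or DESeq2, and 8 of 71 genes had an unadjusted p under 0.05. Over all genes tested 46.3% had a log2 fold change above 0, and 0.467% lay wholly above the vehicle range. The pericentral hepatocyte markers, from the zone that also carries most P450 enzymes, had 8 of 8 members above 0 with a median of 0.32, and Oat and Rhbg lay wholly above the vehicle range. Their summed level was 12290 to 18300 CPM at 2500 ppm and 10880 to 16240 CPM on vehicle, with no marker at 0. The markers of Kupffer cells, the liver's macrophages, had 10 of 10 members below 0 with a median of -0.17, and summed to 234 to 288 CPM in treated livers and 246.5 to 357 CPM in vehicle livers. The fibroblast markers had 4 of 4 members below 0 with a median of -0.38, and summed to 28.2 to 63.8 CPM in treated livers and 43.99 to 95.7 CPM in vehicle livers, with none at 0. In both groups 4 of 5 erythroid, 3 of 6 pancreatic acinar and 1 of 5 neutrophil markers were at 0. The erythroid markers at 0 were the globin genes, while Alas2 averaged 174.8 CPM at 2500 ppm and 189.5 CPM on vehicle. Why the globin genes held no counts was not tested, and a 0 is not read here as a lack of these cells. The part of the pericentral, Kupffer and fibroblast markers in the results was not tested, and in whole liver fewer cells of a type and less RNA per cell cannot be told apart.

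The same genes were read at each dose fed to males for 5 days. All of these doses were set against the same vehicle libraries, so the comparisons are not independent. The median log2 fold change of the 14 CAR and PXR targets was 0.17 at 150 ppm, 0.06 at 300 ppm, 0.45 at 1250 ppm and 0.73 at 2500 ppm. That of the 12 RNA-processing genes was -0.15, -0.42, -0.37 and -0.38. Cyp3a11 averaged 2373 CPM on vehicle, 2541 at 150 ppm, 2262 at 300 ppm, 3464 at 1250 ppm and 4284 at 2500 ppm, and Cyp2c55 13.6, 12.4, 13.1, 25.2 and 38.8 CPM. Malat1 averaged 815 CPM on vehicle, 510 at 150 ppm, 515 at 300 ppm, 414 at 1250 ppm and 372 at 2500 ppm. Cyp7b1 averaged 797.0, 741, 727, 639 and 433 CPM over the same groups, and Scp2 3175, 3032, 3164, 3084 and 2532 CPM. In all, 13 genes (0.101%) were called at 1250 ppm, 5 (0.039%) at 300 ppm, and 0 at 150 ppm by edgeR, where 440 had an unadjusted p under 0.05.

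**Figure D5:**
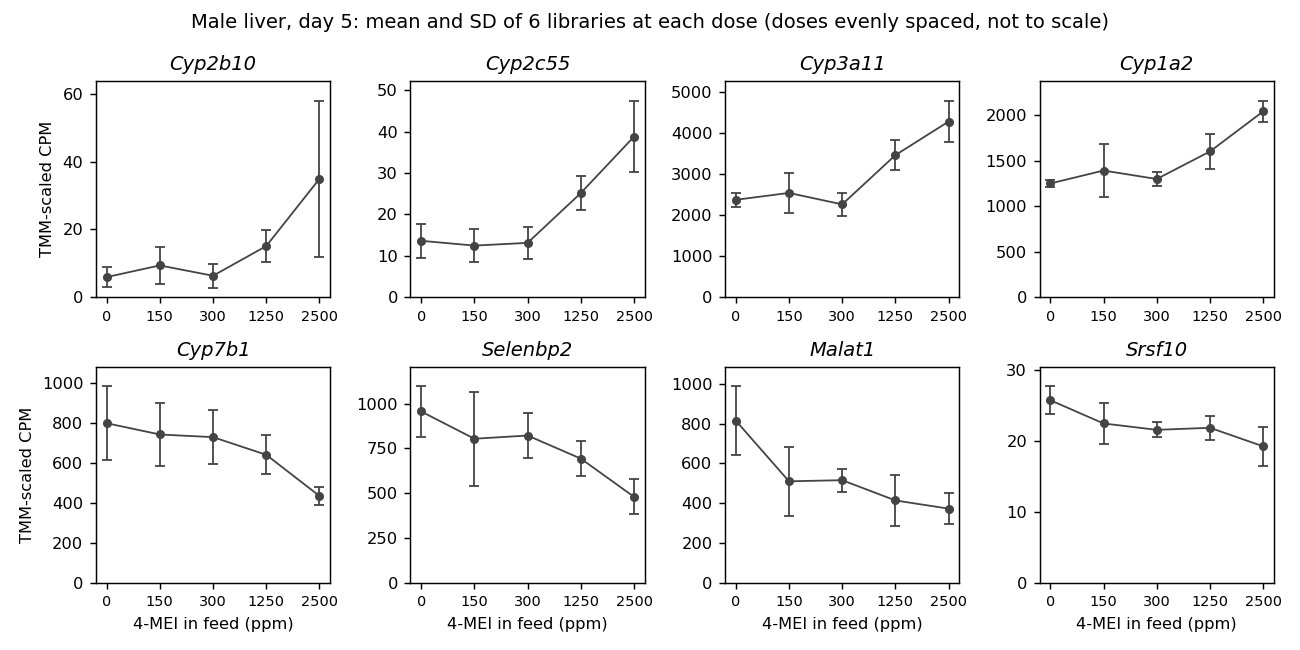
Mean level (points) and SD (bars) of 8 genes in male liver at day 5 at 0 (vehicle), 150, 300, 1250 and 2500 ppm 4-MEI in feed, 6 libraries per dose, as TMM-scaled CPM on a linear axis from 0. The 4 P450 genes of the top row lie above the vehicle mean at 1250 and 2500 ppm, and Malat1 lies below the vehicle mean at every dose.

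A direct test of 2500 ppm against 1250 ppm, which leaves the vehicle libraries out of the contrast, called 0 of 12836 genes by edgeR and 0 by DESeq2, with 643 genes at an unadjusted p under 0.05 in edgeR. The smallest adjusted p was 0.0679, for the sialic acid receptor gene Siglece, at 1.84 CPM at 2500 ppm and 3.19 CPM at 1250 ppm. Cyp2b10 differed by 1.22 (SE 0.40, adjusted p = 0.949), with means of 34.9 CPM at 2500 ppm and 15.1 CPM at 1250 ppm. C9 and Scp2 differed by -0.36 and -0.28 (adjusted p = 0.427 and 0.606). The medians of the CAR and PXR targets and of the male-biased genes in this test were 0.25 and -0.17, and that of the RNA-processing genes was 0.00.

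In females fed 2500 ppm for 5 days 7 genes were called (0.0545%), and their vehicle libraries are separate from those of the males. Of the 28 genes that rose in males, 22 had a log2 fold change above 0 in females, with a median of 0.21, and of the 24 that fell 18 were below 0, with a median of -0.08. Among all genes 6328 of 12836 were above 0 in females. Cyp3a11 averaged 4513 CPM in treated females and 2830 CPM in vehicle females, and Cyp2c29 3388 and 1765 CPM. Malat1 averaged 415 CPM in treated females and 483 CPM in vehicle females (log2 fold change -0.22), where vehicle males held 815 CPM. The median log2 fold change of the RNA-processing genes in females was -0.13. Cyp2b10, at 72.99 CPM in treated females and 56.5 CPM in vehicle females, had a log2 fold change of 0.37 in females and 2.58 in males. The difference of 2.21 (SE 0.58) between the sexes had an unadjusted p of 0.000338 and an adjusted p of 0.482. The test of the sex difference called 0 of 12836 genes by edgeR, with 521 at an unadjusted p under 0.05, and 2 by DESeq2. Its smallest adjusted p was 0.159 for Scp2, whose log2 fold change was -0.33 in males and 0.17 in females.

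After 28 days of 2500 ppm, by their titles, males again had separate vehicle libraries, and 10 of 13125 genes were called (0.0762%). All 28 genes that rose at day 5 had a log2 fold change above 0 at day 28, with a median of 0.36, where 5592 of all 13125 genes were above 0. Of the 24 that fell at day 5, 15 were below 0 at day 28, with a median of -0.09. Cyp2b10 averaged 46.7 CPM in treated males and 5.50 CPM in vehicle males of day 28 (log2 fold change 3.09), and Cyp2c39 18.9 and 17.5 CPM (log2 fold change 0.11, against 0.78 at day 5). Malat1 averaged 863 CPM in treated males and 809 CPM in vehicle males of day 28. The median of the RNA-processing genes was 0.05 at day 28, and that of the male-biased genes -0.05. The test of day 5 against day 28 called 0 genes by edgeR, with 735 at an unadjusted p under 0.05, and 2 by DESeq2. Its smallest adjusted p was 0.248 for Malat1, with a difference of -1.22 (SE 0.27).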

How the data were processed

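RNA was sequenced from mouse liver with a stranded poly(A) kit, per the labels' protocols. The deposited values are counts of reads per gene symbol, 24421 symbols, which the authors made with Trimmomatic, Bowtie2, SAMtools and HTSeq on mm10, per the submitters' processing notes. Not given in the sources used here are the tools' versions, which annotation served and whether reads were counted by strand, so overlapping and antisense genes cannot be told apart.

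Groups were read from the sample titles, which at day 28 disagree with the sex and dose fields of some samples. From the counts, genes were kept by filterByExpr, scaled by TMM and fitted with edgeR 4.0.16 (robust quasi-likelihood, R 4.3.3, limma 3.58.1) over all 60 day 5 liver libraries with a mean for each of 10 groups, and p-values were adjusted by Benjamini-Hochberg over all genes tested, with a threshold of 0.05. The SE is the log2 fold change over the square root of F. Day 5 and day 28 were compared in 1 fit of 120 liver libraries. Library totals were between 11070867 and 16704861 counts in the 12 libraries compared, and no pair of libraries held identical counts. The fits were tested on simulated data. Alternatives were RLE scaling, no filter, DESeq2 1.42.0, fewer groups in the fit, a term for the place of each title's number in its block of 8, and leaving out each library.

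The group, the gene lists and the markers were chosen with earlier results of these data known. All genes past the threshold could be named. Values over the libraries were read for up to 12 genes with the highest and 12 with the lowest log2 fold change whose higher group averaged at least 1 CPM, predicted gene models passed over, and for called list members. They are also given for some other called genes, such as Mat1a and Scp2. List members that missed the threshold were named with their values, as were up to 6 genes that ranked first by adjusted p in each further test. The sex difference of vehicle livers at day 28 and the values by gene of the place term were added after the results were seen. Positions (found for 52 of 52 called genes) and promoters come from RefSeq on GRCm38.p6, and shared 50-base stretches from GENCODE transcripts. A few genes are not reported here.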

Additional observations from a re-analysis of the deposited data

Results flagged for a closer look

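The screen covered 34 called genes, which were those with the 12 highest and 12 lowest log2 fold changes and the called list members. Other called genes, Mat1a and Scp2 among them, were not screened. In the 34 genes 68 groups of 6 were screened for a library far from the others, and chance marks about 1 group in 20. In 6 of them the gap to the nearest library was large for the range of the group. At 2500 ppm, the library at place 2 of its title numbers' block of 8 held 79.4 CPM of Cyp2b10, with the next library at 37.99 CPM, and 58.3 CPM of Tardbp, with the next at 44.8 CPM. That at place 7 held 68.9 CPM of Slc39a4 and 348.6 CPM of Mup21, with the next libraries at 57.7 and 228.5 CPM. That at place 8 held 0.0698 CPM of Snx22, below the next lowest at 0.375 CPM. On vehicle, replicate 82 held 34.97 CPM of Cyp2c38, with the next at 26.7 CPM.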

How the results depend on the processing

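For 2500 ppm against vehicle in males at day 5, 52 genes were called. DESeq2 called 94 (48 higher and 46 lower, 50 of them shared with edgeR). A fit limited to both groups called 29 (21 higher and 8 lower, 19 shared). RLE scaling gave 55 calls, a fit of the male groups only 35, no filter on low counts 35 (26 higher and 9 lower) and the place term 58. Leaving out each library in turn gave 24 to 51. The count fell by over 1.5 times without replicates 85 and 88 on vehicle (32 and 27) and without the 2500 ppm libraries at places 3, 6 and 8 of their title numbers' block (32, 24 and 29). Of the 52 genes, 13 were called in all 18 other fits (11 higher and 2 lower), and none changed direction in any. DESeq2 called 2 genes for the difference between the sexes and 2 for that between the days, where edgeR called 0. Snx22 and Muc6 rest on few reads, so depth limits their values. No paired analysis was possible because the 2 groups compared share no title numbers. Some places in the blocks of 8 are shared, and with the place as a block, an alternative chosen after seeing the data, 52 genes were called (27 higher and 25 lower, 37 shared).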

Other observations

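Each title holds a number, and the place of each number in its block of 8 went with the level of many genes. What the numbers stand for is not given in the sources used here. Over the 60 day 5 livers, a linear term for the place passed edgeR's test in 4063 of 12836 genes (31.7%), and the mean place was 5 at 2500 ppm and 3.83 on vehicle. Cyp2a5, the coumarin hydroxylase, had a slope of 0.33 on the log2 scale per place (adjusted p = 1.07e-16), and its log2 fold change at 2500 ppm was 0.68 with the term (adjusted p = 0.238), against 1.11 without it. Por, the electron donor of the P450 enzymes, had a slope of 0.26 and log2 fold changes of 0.34 with the term and 0.62 without it. Alas1, the first enzyme of haem synthesis, had a slope of 0.40 and log2 fold changes of -0.86 and 0.04.

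With the place term 58 genes were called at 2500 ppm, 30 higher and 28 lower, of which 46 were also called without it. Called with the term alone were 12 genes, among them the fatty acid hydroxylase Cyp4a14 and the peroxisomal oxidase Acox2. Called without it alone were 6, among them Abcd2, Aplp2, Clk1, Slc39a4 and Srsf6.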
